A study of Mus musculus with 12 samples.

Results

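The transcripts of 8 cell surface molecules used to recognise stem cells of chronic myeloid leukaemia (CML) were followed in 4 sorted leukaemic populations of a mouse CML-like model. They were Dpp4 (CD26), Il2ra (CD25), Cd93, Cd36, Cd9, Cd33, Cd44 and Cd69, a list taken by name, with earlier results of these data known. All 8 were among the 46103 genes listed, and 7 of them were among the 10072 tested genes, those that reached 1 RPKM in 3 or more libraries. Cd36 fell outside that filter. RPKM scales the reads of a gene to transcript length and to the total of the library, so levels can be set side by side between genes. The leukaemia was started from bone marrow of 5FU-treated C57BL/6 mice carrying the G0 marker (G0M) at Rosa26, switched on in blood cells by Vav1-Cre. G0M is a fusion of mVenus with a p27 mutant that cannot bind its kinases, and it marks quiescent cells. The marrow was transduced with a retrovirus carrying human BCR-ABL1 and GFP and given to lethally irradiated wild-type mice together with normal marrow. Each library was made from 100 BCR-ABL1+ Lin- Sca1+ cKit+ CD27+ cells, from bone marrow and spleen per the labels. DP cells were G0M+ and SP cells were G0M-, from mice given vehicle, and IMDP and IMSP cells were the same fractions from mice given the BCR-ABL1 kinase inhibitor imatinib by oral gavage. All 4 groups, the vehicle groups included, carried BCR-ABL1 and the G0M transgene and were CD27+, and none of the 8 molecules was used in the sort. Each group had 3 libraries, and neither the labels nor the methods tie a library to a mouse, so p-values measure the spread between these libraries. All imatinib libraries carry library numbers 1 to 6 and all vehicle libraries 7 to 12, so treatment and library number cannot be told apart.

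CML is driven by the BCR-ABL1 kinase, and a small fraction of quiescent stem cells can persist during treatment with kinase inhibitors. Surface molecules are used to recognise and isolate such cells, and several of them are also expressed by normal progenitors or by mature blood cells. CD26 is a protease that clips dipeptides from chemokines such as CXCL12. CD25 is the alpha chain of the interleukin-2 receptor, whose signal runs through JAK1, JAK3 and STAT5. CD69 and CD93 are lectin-like membrane proteins, and CD69 binds the sphingosine 1-phosphate receptor S1PR1 and holds it inside the cell. CD44 is the main receptor for hyaluronan, CD9 is a tetraspanin, CD33 is a lectin for sialic acid on myeloid cells, and CD36 takes up fatty acids. Transcript levels do not give the amount of protein on the surface, which was not measured in these files.

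Promoter windows of 300 bases, from 250 before to 50 after the start of transcription, were taken from RefSeq for the build GRCm38.p6, and 6 of the 8 genes matched. They are shown for the 3 of these genes whose levels differed between G0M+ and G0M- cells in any fit described here. All are printed 5′ to 3′ on the strand of the gene, and capitals mark matches to the motifs searched. The windows lie at chr2:11642542-11642841 (plus strand) for Il2ra, chr2:62412182-62412481 (minus strand) for Dpp4 and chr2:102901616-102901915 (minus strand) for Cd44.
Il2ra: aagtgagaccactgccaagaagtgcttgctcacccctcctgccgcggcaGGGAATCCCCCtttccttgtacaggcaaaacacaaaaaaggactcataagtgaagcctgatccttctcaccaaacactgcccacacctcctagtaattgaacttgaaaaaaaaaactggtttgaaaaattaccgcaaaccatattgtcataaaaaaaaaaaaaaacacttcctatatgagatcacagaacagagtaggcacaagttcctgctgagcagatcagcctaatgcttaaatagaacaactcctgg
Dpp4: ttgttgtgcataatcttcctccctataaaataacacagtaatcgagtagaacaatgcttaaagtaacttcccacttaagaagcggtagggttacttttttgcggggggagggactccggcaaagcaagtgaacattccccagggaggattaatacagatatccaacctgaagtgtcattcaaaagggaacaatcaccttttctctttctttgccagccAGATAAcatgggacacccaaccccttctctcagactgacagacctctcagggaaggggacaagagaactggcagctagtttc
Cd44: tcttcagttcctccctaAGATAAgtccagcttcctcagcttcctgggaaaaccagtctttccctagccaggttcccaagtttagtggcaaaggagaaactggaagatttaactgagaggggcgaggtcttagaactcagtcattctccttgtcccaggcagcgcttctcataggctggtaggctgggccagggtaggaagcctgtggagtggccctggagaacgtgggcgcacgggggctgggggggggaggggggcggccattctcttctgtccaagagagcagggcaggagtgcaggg
Both strands were read for each motif, and shares refer to all 32851 windows. An NF-κB match, present in 8.46% of windows, started 201 bases before the Il2ra start site and overlapped a match on the other strand. The GATA motif AGATAA, present in 11.2% of windows, lay 32 bases before the start of Dpp4 and 233 bases before the start of Cd44. The RUNX motif TGTGGT was found in the Cd33 window and in 16.8% of windows. The AP-1 motif TGANTCA (7.81% of windows) was in none of the 6 windows. Neither was the STAT motif TTCNNNGAA (8.3% of windows). These are matches of letters, and binding was not measured.

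The total behind the RPKM was between 11.4 M and 20.6 M reads per library, of which 25.9% to 37.1% fell on listed features. At this depth 1 read on a transcript of 1 kb equalled 0.0486 to 0.088 RPKM, and intervals from reads would cover counting error only. The proliferation gene Mki67 was at 7.18 to 21.3 RPKM in the 6 G0M+ libraries and at 50.8 to 70.6 RPKM in the 6 G0M- libraries, without overlap. Of the genes of the gate, Kit and Cd27 passed no comparison. Ly6a, which encodes Sca1, was higher in G0M+ cells by 1.42 on the log2 scale averaged over treatment (limma, adjusted p = 0.00544). Among markers of other cells, 8 B cell genes summed to 1.76 to 4.35 RPKM, with Ms4a1, Ebf1 and Pax5 at 0 in all 12 libraries, and 8 T and NK cell genes summed to 26.9 to 265.1 RPKM. In each of these lists 1 of the 8 genes passed the filter. The sum of 10 neutrophil and monocyte genes ranged from 73.6 RPKM to 2737 RPKM. It was lower in every IMDP library (at most 299.9 RPKM) than in every SP and IMSP library (at least 399.4 RPKM). DP replicates 2 and 3 (73.6 and 267.5 RPKM) also lay below those libraries, and DP replicate 1 was at 1490 RPKM. Of 6 tested, Mpo, Prtn3 and Ctsg were called lower in G0M+ cells averaged over treatment. The part of such cells in the differences of DP and IMDP cells was not tested. In these bulk libraries, fewer cells of a type and less RNA per cell cannot be told apart.

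The 8 transcripts spanned a wide range of levels. Averaged over the 12 libraries, Cd69 (33.9 RPKM) and Cd44 (27.5 RPKM) lay at percentiles 94.4 and 94.4 of the tested genes. Cd93 (17.9 RPKM) and Cd9 (11.1 RPKM) lay somewhat lower, at percentiles 89.5 and 79.5. Il2ra (1.5 RPKM), Dpp4 (1.25 RPKM) and Cd33 (1.09 RPKM) lay at the low end of the tested genes, and Cd36 (0.0243 RPKM) was close to the level of single reads. Among the 7 tested genes, the largest differences between vehicle and imatinib groups were those of Il2ra and Cd69.

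**Figure D1:**
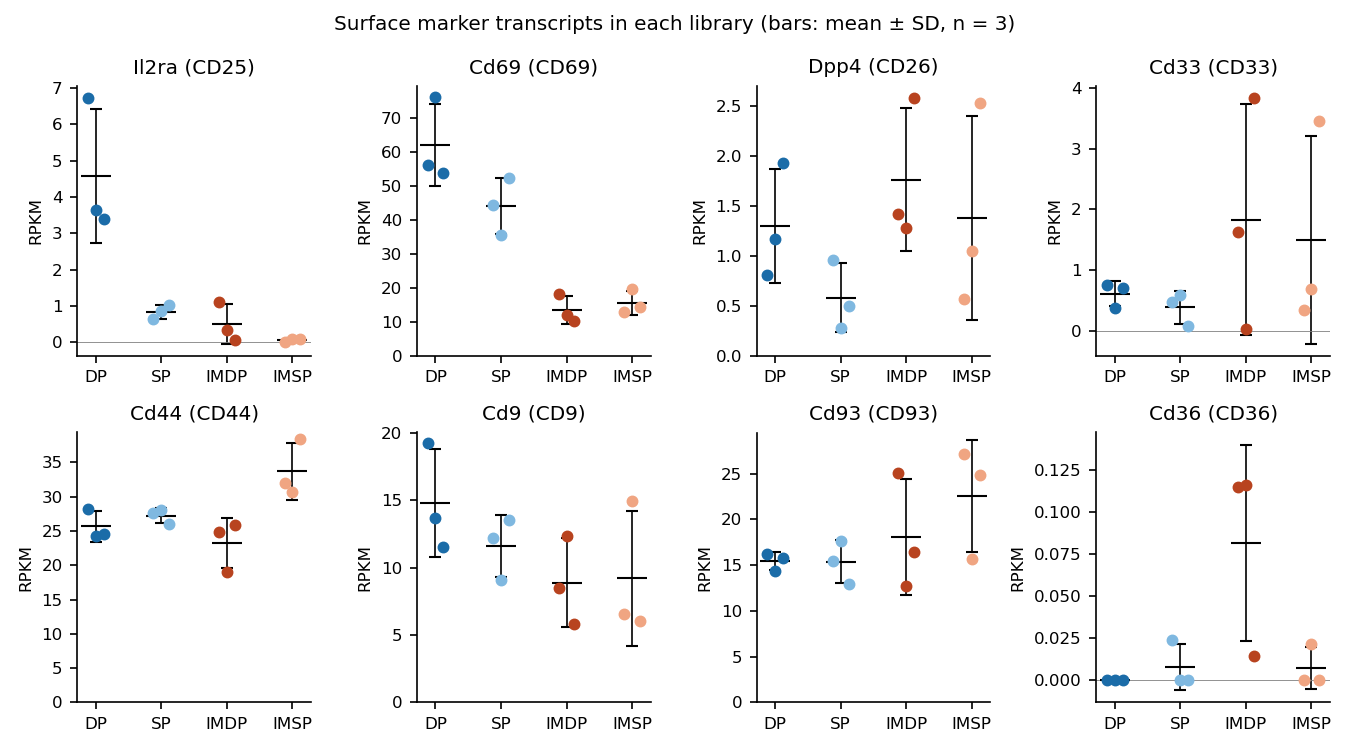
RPKM of each of the 8 transcripts (y axis, linear) in the 3 libraries of each group (points), with mean and SD (bars, n = 3). Il2ra was highest in the 3 DP libraries, Cd69 was lower in all 6 imatinib libraries than in all 6 vehicle libraries, and Cd44 was highest in IMSP cells.

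Few of the 7 tested members passed a comparison at an adjusted p of 0.05 (limma on log2(RPKM + 0.1), Benjamini-Hochberg over all 10072 genes). Between DP and SP cells 0 of 7 passed, with 1 at an unadjusted p under 0.05 and 1 called by limma-voom on reads recovered from the RPKM, while 2.26% of all genes were called. Between IMDP and IMSP cells 1 of 7 was called (Cd44, lower in IMDP cells), beside 25.6% of all genes. Between IMDP and DP cells 1 of 7 was called (Cd69, lower in IMDP cells), beside 0.367% of all genes. Between IMSP and SP cells 0 of 7 were called by limma and by limma-voom, with 2 members (Il2ra and Cd69) and 845 of all genes at an unadjusted p under 0.05, and 0% of all genes were called. Averaged over treatment, 2 of 7 differed between G0M+ and G0M- cells (Il2ra higher, Cd44 lower), beside 26.3% of all genes. Averaged over population, 2 of 7 fell with imatinib (Cd69 and Il2ra), beside 0.854% of all genes. For the population by treatment interaction 0 of 7 were called by limma and by limma-voom, with 1 member (Cd44) and 937 genes at an unadjusted p under 0.05, and 0% of all genes were called. For both comparisons of G0M+ with G0M- cells that called members, the members' share was near the background share.

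Separation of the libraries was more frequent than calls in 3 of the 4 comparisons between groups. All 3 libraries of a group lay on the same side of all 3 of the other for 2 of 7 members between DP and SP cells (Il2ra and Cd69), against 22.4% of all genes. This held for 1 of 7 between IMDP and IMSP cells (Cd44), against 39% of all genes. It held for 2 of 7 between IMDP and DP cells (Il2ra and Cd69), against 23.6%, and for 3 of 7 between IMSP and SP cells (Il2ra, Cd44 and Cd69), against 13.8%. The median difference of all tested genes was not at 0 in each comparison. It was -0.25 (log2) between IMDP and IMSP cells, -0.17 between IMDP and DP cells and -0.13 between G0M+ and G0M- cells averaged over treatment, and differences relative to it are given where they matter.

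**Figure D2:**
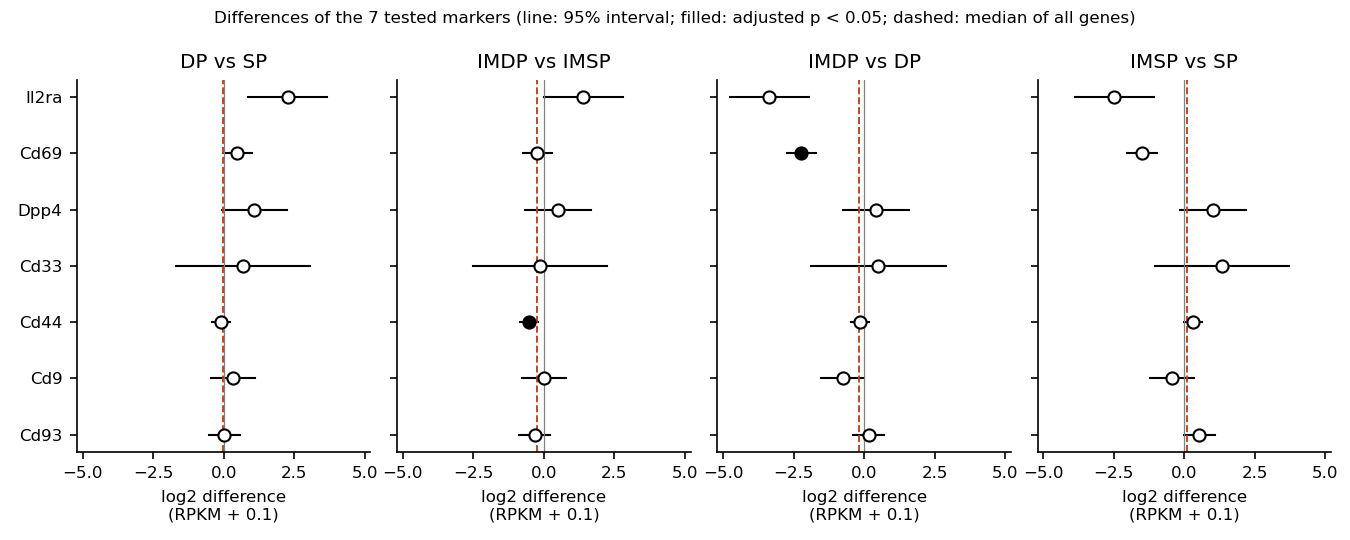
Log2 difference (x axis, first group minus second, on log2(RPKM + 0.1)) of the 7 tested transcripts in 4 comparisons, with 95% intervals (lines), filled symbols for an adjusted p under 0.05 and the median of all genes (dashed). Only Cd44 in IMDP against IMSP and Cd69 in IMDP against DP are filled, and the Cd33 intervals are the widest.

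With the pseudocount of 0.1, CD25 showed the largest log2 differences of the 8 transcripts. Il2ra (chr2:11642807-11693193, plus strand) was at 6.72, 3.64 and 3.39 RPKM in the DP libraries (466, 252 and 222 reads), a mean of 4.58 ± 1.86 (SD, n = 3). In SP cells it was at 0.637, 0.852 and 1.02 RPKM (58 to 64 reads). Every DP library was thus above every SP library. With imatinib it was at 1.10, 0.349 and 0.0533 RPKM in IMDP cells (63, 23 and 4 reads) and at 0.0129, 0.0993 and 0.1 RPKM in IMSP cells (1, 5 and 6 reads). The IMDP and IMSP libraries overlapped, since IMDP replicate 3 lay below 2 IMSP libraries. The order of the group means was DP, SP, IMDP and IMSP, in which DP was separated from SP and the other neighbours overlapped.

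The G0M+ cells had more Il2ra than the G0M- cells by 1.84 on the log2 scale averaged over treatment (95% interval 0.84 to 2.83, adjusted p = 0.0137). This call was kept in all 22 alternative fits. The difference was 2.27 (SE 0.64, adjusted p = 0.115) between DP and SP cells and 1.40 (SE 0.64, adjusted p = 0.126) between IMDP and IMSP cells. The former passed by limma-voom (adjusted p = 0.0115) and with neighbouring library numbers as a block (adjusted p = 0.0477), beside 980 of 10072 genes. The latter passed without IMDP replicate 3 (2.15). With imatinib Il2ra was lower by 2.92 on the log2 scale averaged over population (log2 difference -2.92, 95% interval -3.91 to -1.93, adjusted p = 0.0197). That call was lost without DP replicate 1, DP replicate 2 or SP replicate 3. Within G0M+ cells the difference was -3.36 (SE 0.64, adjusted p = 0.053), which passed without IMDP replicate 1 (-4.09). Within G0M- cells it was -2.48 (SE 0.64, adjusted p = 0.406). At 1 to 6 reads per IMSP library these sizes depend on the pseudocount. With a pseudocount of 1 the differences were 0.43 between IMDP and IMSP cells, -1.91 between IMDP and DP cells and -0.77 between IMSP and SP cells. The averages were then 0.99 for population and -1.34 for treatment, and both kept their calls. Cd69 then had the larger treatment average (-1.975 to -1.746 over its alternative fits). The interaction was -0.87 (adjusted p = 0.751), so the fall was not shown to differ between the populations.

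Markers of mast cells and basophils moved with Il2ra between the populations. The sum of 11 such markers, 10 of them above 0 in any library, was 76.3 to 329 RPKM in DP cells and 10.6 to 23.1 RPKM in SP cells, and 14.9 to 194 RPKM in IMDP cells and 7.92 to 24.4 RPKM in IMSP cells. Of the 7 tested, Prss34, Cma1, Mcpt8 and Fcer1a were called higher in G0M+ cells averaged over treatment. The defining mast cell proteases Cma1, Mcpt4 and Tpsb2 were at 0 in all 6 G0M- libraries, and Tpsab1 was at 0 in all 12. DP replicate 1 and IMDP replicate 1 had the highest sums of their groups (329 and 194 RPKM) and also the most Il2ra. Between IMDP and DP cells the median difference of the 7 tested markers was -1.61, with 0 called, beside -0.17 for all genes. IMDP replicates 2 and 3 (45.6 and 14.9 RPKM) lay below every DP library, whereas IMDP replicate 1 had more marker RNA than DP replicates 2 and 3 (80.1 and 76.3 RPKM) but less Il2ra. SP and IMSP libraries overlapped in marker sum and did not overlap in Il2ra.

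Between G0M+ and G0M- cells the median differences of erythroid and macrophage markers also had the sign of that of Il2ra. With imatinib the erythroid median kept the sign of Il2ra and the macrophage median did not. The sum of 10 erythroid genes was 207.7 to 268.8 RPKM in DP and 55.2 to 148 RPKM in SP cells, without overlap, and 58.4 to 487.9 RPKM in IMDP and 10.7 to 72.9 RPKM in IMSP cells. Their median difference with imatinib averaged over population was -1.6 over 7 tested genes, of which 0 were called. Macrophage genes had a median difference of 1.58 between G0M+ and G0M- cells averaged over treatment, and Hmox1, C1qc, Vcam1 and Adgre1 were called higher among 7 tested. Their sums were 9.85 to 21.5 RPKM in DP and 4.49 to 9.8 RPKM in SP cells, and 21.5 to 25.3 RPKM in IMDP and 8.06 to 39.3 RPKM in IMSP cells. With imatinib the median difference of the macrophage genes was 0.59 averaged over population and 0.83 between IMDP and DP cells, with 0 called. The part of any of these cells in the differences of Il2ra was not tested.

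**Figure D3:**
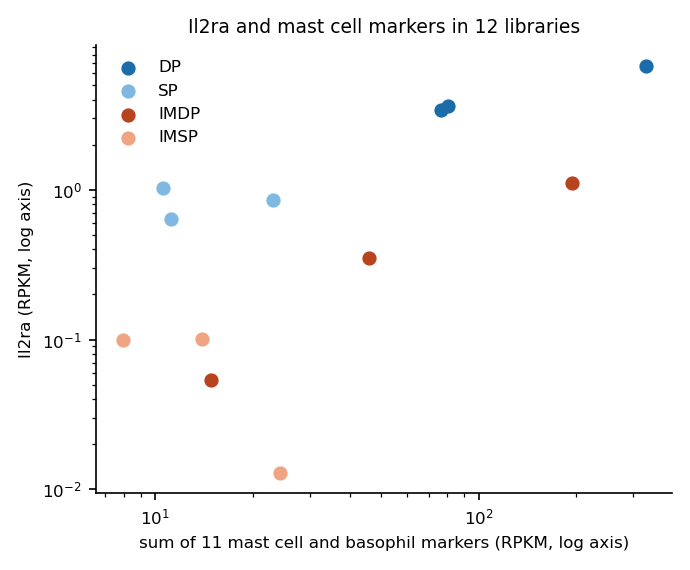
Il2ra (y axis, RPKM, log scale) against the sum of 11 mast cell and basophil markers (x axis, RPKM, log scale) in each of the 12 libraries (points, coloured by group). DP libraries lie at the upper right, and the SP libraries lie above the IMSP libraries at similar marker sums.

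Of 15 genes listed for the receptor of CD25, its ligand and its signal, 11 were tested. Between G0M+ and G0M- cells 1 of 11 was called, beside 26.3% of all genes, and with imatinib 1 of 11 was called, beside 0.854% of all genes. Il2rg, the common gamma chain, was higher in G0M+ cells by 0.56 averaged over treatment (adjusted p = 0.0118), with means of 35.4 RPKM in DP, 21.1 RPKM in SP, 26.2 RPKM in IMDP and 20.8 RPKM in IMSP cells. It was not called with imatinib (-0.24, adjusted p = 0.372). Jak3 was higher with imatinib by 0.58 (adjusted p = 0.0367), with means of 11 RPKM in DP and 8.8 RPKM in SP cells against 16.2 RPKM in IMDP and 13.5 RPKM in IMSP cells. Il2rb, the beta chain that completes the signalling receptor, was under the filter. Its highest library was at 1.62 RPKM in IMDP, 0.642 RPKM in DP, 0.551 RPKM in IMSP and 0.0106 RPKM in SP cells. Cish, a feedback inhibitor induced through STAT5, had the same order of means as Il2ra, with 23.2 RPKM in DP, 12.1 RPKM in SP, 10.6 RPKM in IMDP and 4.48 RPKM in IMSP cells, and was not called. The ligand Il2 had a single read in 1 DP library and was at 0 in the other groups. The genes with the profile most like that of Il2ra over the 12 libraries were Mxd1 (Pearson r = 0.94), a MAX-binding repressor, the cytokine Lif (r = 0.93) and Il1rl1 (r = 0.93), the receptor of interleukin-33. Mast cells and basophils are known to express Il1rl1.

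CD69 was the most abundant of the 8 transcripts in vehicle-treated mice and fell with imatinib. Cd69 (chr6:129267325-129275436, minus strand) was at 56.2, 76.2 and 54 RPKM in DP cells and at 44.6, 35.8 and 52.3 RPKM in SP cells. In IMDP cells it was at 18.2, 12.1 and 10.2 RPKM, and in IMSP cells at 12.9, 19.7 and 14.5 RPKM. The lowest vehicle library was above the highest imatinib library, and 423 or more reads lay behind each value. Averaged over population the log2 difference with imatinib was -1.86 (95% interval -2.23 to -1.49, adjusted p = 0.00142), a level 3.63-fold lower. It was called in all 22 alternative fits. Between IMDP and DP cells it was -2.22 (SE 0.24, adjusted p = 0.00863), or 4.66-fold lower. Without IMDP replicate 3 the difference was -2.04 and was not called (adjusted p = 0.0644). Between IMSP and SP cells it was -1.49 (SE 0.24, adjusted p = 0.234), also without overlap. The interaction was -0.73 (adjusted p = 0.535).

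Between populations Cd69 was not called. It was higher in every DP library than in every SP library, by 0.49 (95% interval -0.03 to 1.01, adjusted p = 0.409). IMDP and IMSP libraries overlapped (-0.24, 95% interval -0.76 to 0.29, adjusted p = 0.484), and this difference turned to 0.04 after the libraries were scaled to the same median and to 0.09 with reads on listed features as denominator, without a call. The order of the means was DP, SP, IMSP and IMDP, and only the last pair overlapped. Of 16 genes listed around CD69 (sphingosine 1-phosphate receptors and enzymes, related lectins, ligands), 12 were tested. Averaged over treatment 2 of 12 were called, both higher in G0M+ cells, beside 26.3% of all genes (536 higher and 2112 lower). They were Clec2d, a lectin-like relative of Cd69 (0.80, adjusted p = 0.0126), and S1pr4, a sphingosine 1-phosphate receptor (0.35, adjusted p = 0.0446). S1pr1, the receptor that CD69 binds, had group means of 0.841 to 1.66 RPKM and was not called with imatinib (0.01, adjusted p = 0.997) or between populations (0.84, adjusted p = 0.307). The most alike profiles were those of Ddit3 (r = 0.97), a transcription factor of the stress response, Arhgap21 (r = 0.95) and Fbxo33 (r = 0.93).

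CD26 was low and varied within groups, but the difference between G0M+ and G0M- cells had the same sign in every pair of neighbouring libraries. Dpp4 (chr2:62330073-62412231, minus strand) was at 0.809, 1.16 and 1.93 RPKM in DP cells and at 0.956, 0.28 and 0.5 RPKM in SP cells. It was at 1.42, 1.28 and 2.58 RPKM in IMDP cells and at 0.571, 1.05 and 2.53 RPKM in IMSP cells, on 36 to 331 reads. The libraries of all neighbouring groups overlapped. Taking the libraries by neighbouring library numbers, Dpp4 was higher in the G0M+ library in 6 of 6 pairs. How many of all genes kept the same sign in every pair was not counted. The closest pair was at 2.58 against 2.53 RPKM. Averaged over treatment the difference was 0.79 (95% interval -0.03 to 1.61, adjusted p = 0.132), and 0.93 relative to the median gene. It was called with the library-number block (adjusted p = 0.00827), as was DP against SP (1.09, adjusted p = 0.0355), and not with the replicate block. The library-number block called 4721 of 10072 genes averaged over treatment and 980 between DP and SP cells. IMDP against IMSP was at 0.49 (SE 0.53, adjusted p = 0.517). With imatinib the difference averaged over population was 0.72 (95% interval -0.10 to 1.54, adjusted p = 0.335).

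**Figure D4:**
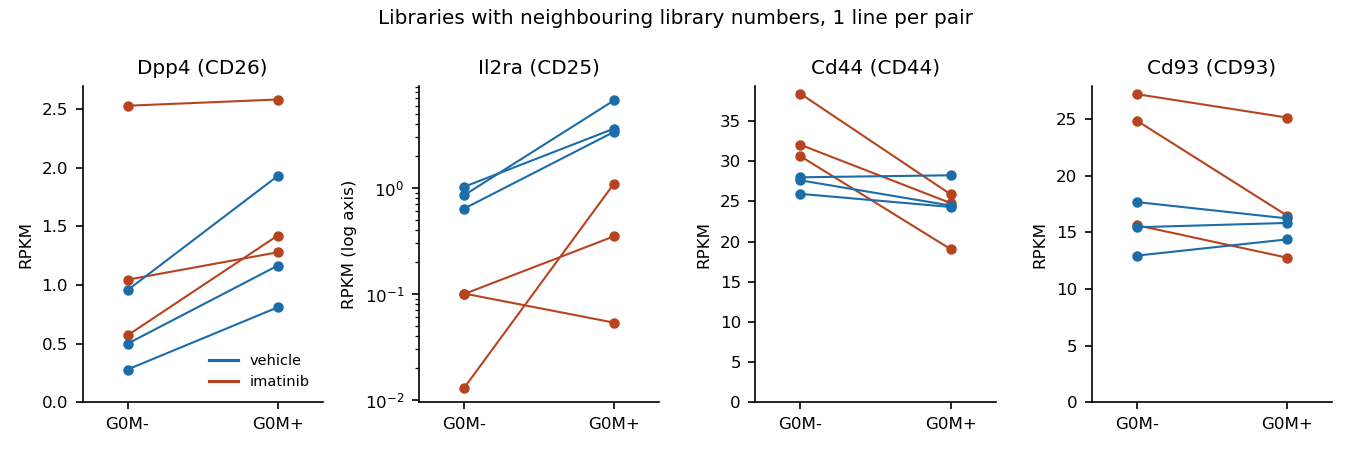
RPKM of Dpp4, Il2ra, Cd44 and Cd93 (y axes, log scale for Il2ra only) in G0M- and G0M+ libraries with neighbouring library numbers, 1 line per pair, coloured by treatment. Dpp4 was higher in G0M+ cells in 6 of 6 pairs and Il2ra in 5, while Cd44 was higher in 1 and Cd93 in 2.

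Of 13 genes listed with CD26 (related proteases, ligands and substrates), 7 were tested. Averaged over treatment 2 of 7 were called, near the 26.3% of all genes. Lower in G0M+ cells were Dpp9 (-0.70, adjusted p = 0.00168) and Prep (-0.30, adjusted p = 0.0211), both proline-specific proteases inside the cell. Cxcr4, the receptor of the CD26 substrate CXCL12, had means of 16.7 RPKM in DP, 21.2 RPKM in SP, 14.5 RPKM in IMDP and 30.1 RPKM in IMSP cells. Its difference averaged over treatment was -0.78 (adjusted p = 0.107). It was called with the library-number block (adjusted p = 0.000874), as were 4721 of 10072 genes. The profiles most like that of Dpp4 were those of Gpr183 (r = 0.92), an oxysterol receptor, Rgl1 (r = 0.92) and the potassium channel Kcna3 (r = 0.90). IMDP replicate 3 and IMSP replicate 3 had the most Dpp4 of their groups. They also had the most Csf1r, a macrophage and monocyte gene, with group maxima of 9.43 RPKM in IMDP and 28.7 RPKM in IMSP cells. The part of such cells was not tested.

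CD44 was evenly high, and the IMSP cells stood above the other groups. Cd44 (chr2:102811141-102901665, minus strand) was at 28.3, 24.3 and 24.5 RPKM in DP, 27.6, 28 and 25.9 RPKM in SP, and 24.8, 19.1 and 25.9 RPKM in IMDP cells. In IMSP cells it was at 32, 30.6 and 38.4 RPKM, above all libraries of the other 3 groups. Between IMDP and IMSP cells the log2 difference was -0.54 (95% interval -0.85 to -0.22, adjusted p = 0.02), a level 1.45-fold lower. Relative to the median gene it was -0.28. After the libraries were scaled to the same median it was -0.26 and did not pass (adjusted p = 0.223), and it also did not pass without IMDP replicate 2, IMSP replicate 1 or IMSP replicate 3. The share of reads on listed features was 25.9% to 31.1% in IMDP cells and 32.6% to 37.1% in IMSP cells. With those reads as the denominator the difference was -0.21 (adjusted p = 0.279). Averaged over treatment the difference was -0.31 (adjusted p = 0.0427), which was kept in 11 of 23 alternative fits. DP and SP cells overlapped (-0.08, 95% interval -0.40 to 0.23, adjusted p = 0.815). IMSP cells were above SP cells without overlap (0.30, 95% interval -0.01 to 0.62, adjusted p = 0.595).

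Of 21 genes listed for hyaluronan, other CD44 ligands and the linkers to actin, 10 were tested. Between DP and SP cells 1 of 10 was called (2.26% of all genes) and between IMDP and IMSP cells 3 of 10 (25.6% of all genes). Hmmr, a hyaluronan receptor that also acts on the mitotic spindle, was lower in G0M+ cells in both comparisons. Its means were 2.06 RPKM in DP against 16.7 RPKM in SP (-3.50, adjusted p = 0.00965) and 0.419 RPKM in IMDP against 14.4 RPKM in IMSP cells (-4.97, adjusted p = 0.000387). The actin linkers Ezr (-0.64, adjusted p = 0.02) and Rdx (-0.55, adjusted p = 0.0392) were lower in IMDP than in IMSP cells. The closest profiles to Cd44 were those of AI413582 (r = 0.96), the splicing factor U2af1 (r = 0.96) and Mfsd7b (r = 0.95), a haem exporter.

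CD93, CD9 and CD33 passed no comparison. Cd93 (chr2:148436640-148443563, minus strand) was at 14.4 to 16.2 RPKM in DP, 12.9 to 17.7 RPKM in SP, 12.8 to 25.1 RPKM in IMDP and 15.6 to 27.2 RPKM in IMSP cells. DP and SP cells differed by 0.02 (95% interval -0.53 to 0.57). In the 3 imatinib pairs of neighbouring libraries it was lower in the IMDP library each time, 25.1 against 27.2, 12.8 against 15.6 and 16.5 against 24.8 RPKM. That difference (-0.33, adjusted p = 0.348) was called with the library-number block (adjusted p = 0.0469), as were 4446 of 10072 genes. It was -0.05 after scaling to the same median. Of its 7 listed partners 4 were tested and 1 was called with imatinib (0.854% of all genes). Igfbp7, a ligand of CD93, was lower with imatinib (means of 2.81 and 3.55 RPKM in DP and SP cells, 0.767 and 0.651 RPKM in IMDP and IMSP cells, adjusted p = 0.044). The profiles most like that of Cd93 were those of Pip4k2b, Fcho1 and Dnase2a (r = 0.92 each).

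Cd9 (chr6:125460266-125494791, minus strand) was at 11.5 to 19.3 RPKM in DP, 9.05 to 13.5 RPKM in SP, 5.79 to 12.3 RPKM in IMDP and 6.04 to 15 RPKM in IMSP cells. Its difference with imatinib averaged over population was -0.60 (95% interval -1.15 to -0.05, unadjusted p = 0.0344 and adjusted p = 0.242 by limma). The populations differed by 0.17 (95% interval -0.37 to 0.72). Gata1, the erythroid and megakaryocyte transcription factor, had the profile most like that of Cd9 (r = 0.93), followed by Inpp5a (r = 0.92) and Cyb5a (r = 0.91). The 8 tested megakaryocyte and platelet markers had a median difference of -0.80 with imatinib averaged over population, with 0 called. Their median was 0.78 between G0M+ and G0M- cells averaged over treatment, with Ppbp called higher. The part of such cells was not tested. Of 24 listed tetraspanins and their partners 16 were tested, and 3 were called between G0M+ and G0M- cells (26.3% of all genes). The tetraspanins Tspan32 (0.55, adjusted p = 0.0167) and Cd82 (0.42, adjusted p = 0.0309) were higher in G0M+ cells averaged over treatment. The CD9 partner Igsf8 was lower in that average (-0.53, adjusted p = 0.0282), but the treatments had opposite signs. Igsf8 differed by 0.16 between DP and SP cells (adjusted p = 0.772) and by -1.22 between IMDP and IMSP cells (adjusted p = 0.00367). Cd81, which pairs with CD9, was at means of 34.2 to 45 RPKM and was not called (0.24, adjusted p = 0.427).

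Cd33 (chr7:43524216-43544428, minus strand) differed more between libraries of a group than between groups. It was at 0.388 to 0.754 RPKM in DP and 0.0948 to 0.602 RPKM in SP cells. In IMDP cells it was at 1.63, 0.0429 and 3.82 RPKM (2 to 203 reads) and in IMSP cells at 0.345, 0.702 and 3.46 RPKM. Replicate 3 of each imatinib group was the highest, as for Dpp4 and Csf1r, and the intervals reached from -2.51 to 2.25 between IMDP and IMSP cells. It was higher in the G0M+ library in 5 of 6 neighbouring pairs, and the difference averaged over treatment was 0.28 (adjusted p = 0.806). The most alike profiles were those of Rnf130 (r = 0.88), Satb1 (r = 0.84) and the macrophage gene Wfdc17 (r = 0.83). Of the 12 genes listed with CD33 (related lectins and the phosphatases that they recruit) 6 were tested and 2 were called between IMDP and IMSP cells (25.6% of all genes). The phosphatases Ptpn6 (-0.41, adjusted p = 0.0232) and Ptpn11 (-0.47, adjusted p = 0.0347) were lower in IMDP than in IMSP cells.

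Cd36 (chr5:17781690-17888801, minus strand) was at or near 0 in all libraries. No read was seen in the 3 DP libraries, which allows up to 0.0161 RPKM (3 reads over the group). There were 2 reads in SP cells, 14 in IMDP cells (6, 7 and 1) and 1 in IMSP cells. Pooled over the group, the 14 IMDP reads were 4.81-fold above this bound, and IMDP replicate 3 (0.0146 RPKM) lay below it. That fold covers counting error in DP cells only, not the spread between libraries, and is no minimum. With 3 libraries against 3, the exact two-sided permutation test gave p = 0.1 for IMDP against DP, which is the smallest it allows, and 0.2 for IMDP against IMSP. For 6 G0M+ against 6 G0M- libraries, permuted within treatment, the exact p was 0.3. Of its 16 listed partners 12 were tested and 3 were called between IMDP and IMSP cells (25.6% of all genes). The fatty acid transporter Slc27a1 was higher in IMDP than in IMSP cells (0.92, adjusted p = 0.0132), and the kinase Lyn (-0.53, adjusted p = 0.024) and the fatty acid binding protein Fabp5 (-0.82, adjusted p = 0.0334) were lower.

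The partner genes that were lower in IMDP than in IMSP cells depended on the scaling, as Cd44 did. After the libraries were scaled to the same median, Dpp9 (-0.64, adjusted p = 0.0203), Igsf8 (-0.94, adjusted p = 0.0286) and Hmmr (-4.74, adjusted p = 0.000519) kept their calls. Prep, Lyn, Fabp5, Ptpn6, Ptpn11, Ezr and Rdx kept the direction and lost the call, with differences from -0.13 to -0.55. Averaged over treatment, Dpp9 kept its call (-0.54, adjusted p = 0.0062) and Prep (-0.14, adjusted p = 0.22) and Igsf8 (-0.37, adjusted p = 0.138) lost theirs. Of the genes that were higher in G0M+ cells averaged over treatment, Il2rg (0.72, adjusted p = 0.00295), Tspan32 (0.71, adjusted p = 0.00182), Cd82 (0.58, adjusted p = 0.0118), Clec2d (0.96, adjusted p = 0.00463), S1pr4 (0.51, adjusted p = 0.00554) and Slc27a1 (1.01, adjusted p = 0.004) kept theirs.

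Among 15 further surface molecules used on CML or normal stem cells, 14 were tested and 0 were called between G0M+ and G0M- cells averaged over treatment (limma), beside 26.3% of all genes. Il1rap, the co-receptor of interleukin-1 that marks human CML stem cells, had means of 0.936 RPKM in DP, 1.33 RPKM in SP, 0.889 RPKM in IMDP and 1.41 RPKM in IMSP cells (-0.53, adjusted p = 0.113). Thy1 fell with imatinib averaged over population (adjusted p = 0.049), from means of 9.06 and 9.24 RPKM in DP and SP cells to 3.08 and 3.8 RPKM in IMDP and IMSP cells.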

How the data were processed

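RNA of 100 sorted cells was measured in each of 12 libraries in 4 groups of 3. Reads were mapped to GRCm38 and the authors deposited RPKM values, 1 file per library. CLC Genomics Workbench is named in the methods, while HISAT2 and featureCounts are named in the reporting summary. The authors ran edgeR for their own comparisons. Whether a further normalization is part of the deposited values is not given in the sources used here. Of the 48737 features, 17735 were above 0. For all of these the RPKM stood on steps of single reads, which gave whole reads within 0.05 read. Numbered copies were summed, and each of the 8 members is 1 feature. Depth was 11.4 M to 20.6 M reads per library.

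The 10072 genes that reached 1 RPKM in 3 or more libraries were tested. Values were taken as log2(RPKM + 0.1) and fitted by limma 3.58.1 (R 4.3.3), using a mean for each of the 4 groups, a trended variance and Benjamini-Hochberg adjustment at 0.05. Cd36 was tested by exact permutation (Python 3.11.15). Named are all members, the 3 most correlated genes of each, up to 3 called genes per partner list, and fixed partners. Jak3, Cish, Igfbp7 and Thy1 were named after their values were seen. Members and lists were chosen with earlier results of these data known. Same-numbered IMDP and IMSP libraries deviated together (correlations 0.43, 0.65 and 0.46), and neighbouring library numbers did so in all 6 pairs (0.43 to 0.65). Alternatives were other pseudocounts, filters, scalings and blocks, limma-voom on recovered reads and each library left out. Scripts were tested on simulated data. Figures were drawn with matplotlib 3.10.9.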

Additional observations from a re-analysis of the deposited data

How the results depend on the processing

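Of 1113 alternative values of members' differences, 1045 kept direction and side of the threshold, 26 lost the call, 15 gained it and 27 changed sign, none of these called in either fit. After scaling to the same median, the sign changed for the Cd93 population average (0.0040), Cd33 (0.070) and Cd69 (0.040) between IMDP and IMSP cells. With reads on listed features as denominator these were 0.033, 0.10 and 0.087, and Cd44 between IMDP and DP cells was 0.051. A pseudocount of 1 gave 0.13 for Cd33 between IMDP and IMSP cells. Without library numbers 5 and 6 the Il2ra interaction was 0.019, Cd33 was -0.49 between IMDP and DP cells and -0.0057 for the treatment average, and the Cd44 treatment average was -0.016. On leaving out a library, Cd93 ranged from -0.10 to 0.13 between DP and SP cells and from -0.091 to 0.39 between IMDP and DP cells. Cd9 ranged from -0.26 to 0.42 between IMDP and IMSP cells and from -0.60 to 0.083 for the interaction. Cd33 ranged from -1.12 to 1.27 between IMDP and IMSP cells, from -0.49 to 1.90 between IMDP and DP cells, from -0.21 to 0.98 for the population average and from -1.82 to 0.57 for the interaction. The counts of members called moved as follows. Between DP and SP cells 1 was called with a pseudocount of 1, with only these groups in the fit, with limma-voom or without library numbers 5 and 6 (an alternative added after seeing the data), 2 with the library-number block (Dpp4 and Il2ra), and 0 to 1 on leaving out a library. Between IMDP and IMSP cells 0 were called with only these groups, after scaling to the same median or with reads on listed features as denominator, 2 with the library-number block (Cd93 and Cd44), and 0 to 2 on leaving out a library. Between IMDP and DP cells 2 were called with a pseudocount of 1, 0 with only these groups or without library numbers 5 and 6, and 0 to 2 on leaving out a library. For the population average 1 was called with no filter, a filter at 5 RPKM, either rescaling or without library numbers 5 and 6, 3 with the library-number block (Dpp4, Il2ra and Cd44), and 1 to 2 on leaving out a library. For the treatment average 1 was called with a filter at 5 RPKM or without library numbers 5 and 6, and 1 to 2 on leaving out a library. The filter at 5 RPKM leaves out Dpp4, Il2ra and Cd33. The cause of the other changes was not tested.

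The replicate block, which pairs by the number in the title, left the members called at 0, 1, 1, 0, 2 and 2 in these comparisons and changed no member's call. Same-numbered DP and SP libraries did not deviate together (correlations -0.19, -0.30 and -0.10). The library-number block cannot give treatment differences.

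Of all genes, 228 were called between DP and SP cells, 980 with the library-number block and 125 to 264 on leaving out a library. Between IMDP and IMSP cells 2581 were called (239 higher, 2342 lower), 4446 with that block, 1553 with only these groups, 1559 after scaling to the same median (635 higher, 924 lower), 1559 with feature reads as denominator (738 higher, 821 lower) and 902 to 2962 on leaving out a library. Between IMDP and DP cells 37 were called, 160 with the stricter filter, 0 with only these groups, 2 and 1 with the rescalings, 8 with limma-voom and 0 to 189 on leaving out a library. The population average called 2648 genes (536 higher, 2112 lower), 4721 with the block, 2361 after median scaling (1119 higher, 1242 lower), 2392 with feature reads (1256 higher, 1136 lower) and 1583 to 3061 on leaving out a library. The treatment average called 86 genes (25 higher, 61 lower), 46 with no filter, 162 (65 higher, 97 lower) and 156 (82 higher, 74 lower) with the rescalings, 3 without library numbers 5 and 6 and 12 to 143 on leaving out a library. Il2ra at 1 to 6 reads in IMSP cells and Cd36 limit what this depth resolves.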
